A study of Mus musculus with 6 samples.

Results

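Dnmt1, Dnmt3a, Dnmt3b, Dnmt3l, Tet1, Tet2, Tet3, Uhrf1 and Mbd2 encode enzymes and cofactors that write, copy, read and remove cytosine methylation. They were taken by gene symbol from the 22180 symbols that have a row of their own in the deposited array table, and all 9 were found, each on 1 row (a transcript cluster, which gathers the probes of a gene). The tissue was colonic mucosa of normal appearance next to tumours, from male BALB/c mice, with 1 array per mouse. There were 4 Mthfd1S+/+ mice (wild type, WT) and 2 Mthfd1S+/- mice, which carry 1 allele deficient in the synthetase activity of the folate enzyme MTHFD1. Both genotypes had received the carcinogen azoxymethane (AOM, 6 mg/kg) and then 3% DSS (dextran sulfate sodium, an agent that damages the colon lining) in 2 cycles of 4 days, and were killed 13 weeks after the injection. The age field gives 7 months, and the protocol gives 3 months at the injection. No array of untreated mucosa entered these comparisons. The labels do not say in which cells the allele acts or what it does to the transcript.

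DNA methylation in mammals is set by the de novo enzymes DNMT3A and DNMT3B and copied after each round of replication by DNMT1, which UHRF1 brings to hemimethylated sites behind the fork. TET enzymes oxidise methylcytosine, which leads to its loss by repair or by dilution, and MBD2 reads methylated CpG as part of a repressive complex. DNMT enzymes draw their methyl group from S-adenosylmethionine, whose supply depends on folate. The comparison asks whether transcripts of this machinery differ with a deficiency in folate metabolism; it does not measure methylation itself.

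The array medians (log2) were 5.4854 and 5.4847 in the Mthfd1S+/- group, below all 4 WT arrays (5.4970 to 5.5318). This offset thus goes with genotype. Centring arrays on their median moved the share of clusters higher in Mthfd1S+/- mucosa from 54.0% to 63.1%. The arrays correlated across clusters at 0.991 to 0.995. Mthfd1 itself read 7.64, 7.63, 7.496 and 7.75 in the WT group and 7.96 and 7.63 in the Mthfd1S+/- group, so the groups overlapped and its level does not check the genotype labels. Epithelial markers, 12 of 12 measured, had WT means of 8.88 to 12.4. Smooth muscle markers such as Acta2, Myh11 and Des had WT means of 5.57 to 12.5 over 12 genes. The lowest of these lay under the median of all tested cluster means, 5.97, and cannot be told from background. Fewer cells of a type and less RNA per cell cannot be told apart in such bulk tissue.

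None of the 9 genes passed the test between genotypes. In limma across 23521 clusters, 0 of 9 had an unadjusted p under 0.05, where 5.79% of all clusters did, and 0 of 9 passed the Benjamini-Hochberg threshold of 0.05, where 0.0% did among all clusters. The groups overlapped in all 9, while they did not overlap in 14.0% of all clusters. Log2 differences (Mthfd1S+/- minus WT) were above 0 for 5 genes and below 0 for 4, beside 54.0% of all clusters above 0. Their median was 0.028, and the median over all clusters 0.012. The size of the difference without its sign had a median of 0.067 for the 9 genes and 0.083 for all clusters. All 9 intervals (95%) included 0. The highest upper end was 0.53 (Tet1, 1.44-fold) and the lowest lower end -0.34 (Tet2, 1.27-fold lower). Changes of 1.5-fold thus lie outside every one of them in this fit of all mice without a covariate. This bound does not extend to other fits, such as that without Mthfd1S+/- mouse 2, where the Tet1 difference was 0.42. With 4 against 2 mice an exact permutation test over the 15 splits cannot go below 0.0667, and the smallest exact p among the 9 genes was 0.133.

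**Figure D1:**
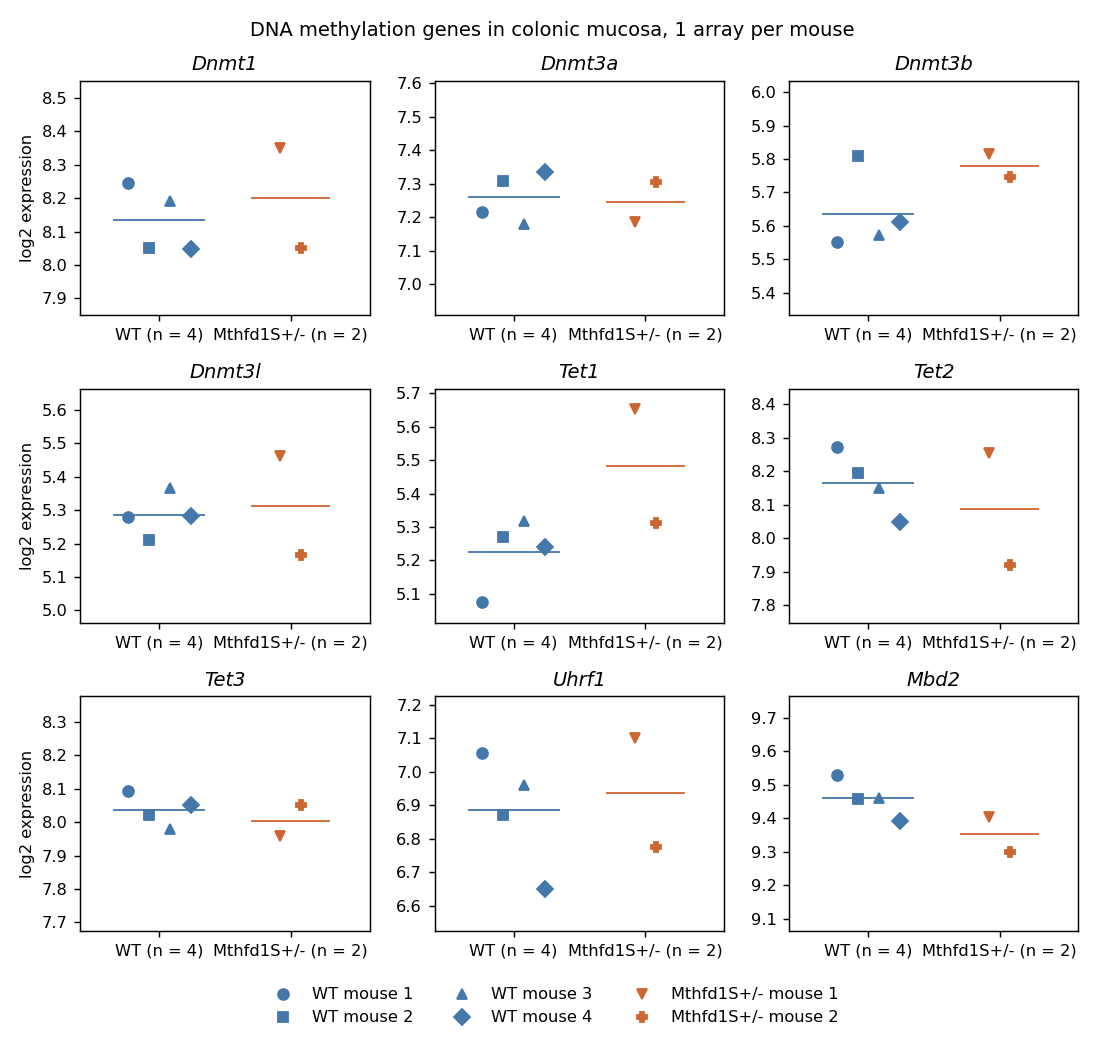
Log2 expression of each of the 9 genes (vertical axes, all spanning the same width) in the 4 WT and 2 Mthfd1S+/- mice, 1 point per mouse, with horizontal lines at the group means. Mthfd1S+/- mouse 1 is the highest of the 6 for Dnmt1, Dnmt3b, Dnmt3l, Tet1 and Uhrf1, and the groups overlap in all 9 panels.

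The maintenance genes come first. Dnmt1, the methyltransferase that copies the pattern onto new strands, read 8.25, 8.05, 8.19 and 8.05 in the WT group (mice 1 to 4, as in all such series here) and 8.35 and 8.05 in Mthfd1S+/- mice 1 and 2. The first Mthfd1S+/- mouse was thus above every WT mouse, and the second lay at the level of the lowest WT mice. The difference was 0.067 ± 0.11 (SE), limma's adjusted p was 0.956 and the exact permutation p was 0.467. Uhrf1, which recognises hemimethylated DNA and recruits DNMT1, read 7.06, 6.87, 6.96 and 6.65 in WT and 7.10 and 6.77 in Mthfd1S+/- mucosa. WT mouse 4 was the lowest and Mthfd1S+/- mouse 1 the highest, and the WT mice alone covered 0.405 on the log2 scale, more than for any other of the 9 genes. Its difference was 0.053 ± 0.14 (SE), with an adjusted p of 0.972 in limma.

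The de novo genes varied less over the 6 mice. Dnmt3a, a de novo methyltransferase of somatic cells, read 7.21, 7.31, 7.18 and 7.33 in WT and 7.19 and 7.31 in Mthfd1S+/- mucosa. Both Mthfd1S+/- mice lay inside the WT range, and the difference was -0.014 ± 0.089 (SE; adjusted p 0.992 in limma). Dnmt3b, the second de novo enzyme, read 5.55, 5.81, 5.57 and 5.61 in WT and 5.81 and 5.75 in Mthfd1S+/- mucosa. Here 3 WT mice lay together below both Mthfd1S+/- mice, and WT mouse 2 lay beside them. The difference was 0.14 ± 0.099 (SE), the adjusted p 0.885 in limma and the exact permutation p 0.267. Dnmt3l, which has no catalytic activity of its own and assists the de novo enzymes in germ cells, read 5.28, 5.21, 5.37 and 5.28 in WT and 5.46 and 5.17 in Mthfd1S+/- mucosa. The 2 Mthfd1S+/- mice were the highest and the lowest of all 6. Detection calls were not used here, so low readings such as those of Dnmt3b, Dnmt3l and Tet1 cannot be told from background. The median of all tested cluster means was 5.97.

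Tet1 had the largest difference of the 9. This dioxygenase, best known from embryonic stem cells, read 5.08, 5.27, 5.32 and 5.24 in WT and 5.65 and 5.31 in Mthfd1S+/- mucosa. Mouse 1 of the Mthfd1S+/- group stood above all others, and mouse 2 lay just under WT mouse 3. The difference was 0.26 ± 0.12 (SE), or 1.19-fold (95% interval 0.990 to 1.44), with limma's p at 0.0610 unadjusted and 0.837 adjusted. The exact permutation p was 0.133. The difference was 0.086 without Mthfd1S+/- mouse 1 and 0.42 without mouse 2, and the latter had an unadjusted p of 0.0115 in limma and an adjusted p of 0.823.

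The other TET genes leaned slightly the other way. Tet2, the dioxygenase often mutated in human blood cancers, read 8.27, 8.195, 8.15 and 8.05 in WT and 8.26 and 7.92 in Mthfd1S+/- mucosa. The 2 Mthfd1S+/- mice were 0.33 apart, further than the 0.22 spanned by the 4 WT mice, and the difference between groups was -0.078 ± 0.11 (SE; adjusted p 0.950 in limma). Tet3, a dioxygenase known from the zygote, read 8.09, 8.02, 7.98 and 8.05 in WT and 7.96 and 8.05 in Mthfd1S+/- mucosa. It had the smallest SD of the 9 genes over the 6 mice, 0.051, and a difference of -0.032 ± 0.083 (SE; adjusted p 0.972 in limma).

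Mbd2, a reader of methylated CpG, read 9.53, 9.46, 9.46 and 9.39 in WT and 9.41 and 9.30 in Mthfd1S+/- mucosa. Mouse 2 of the Mthfd1S+/- group was the lowest of the 6, and mouse 1 lay just above WT mouse 4. The difference was -0.11 ± 0.084 (SE), limma's adjusted p was 0.895 and the exact permutation p was 0.133. With Dnmt3b and Tet1 it was among the 3 genes whose difference kept its sign when any 1 mouse was left out; for Mbd2 it then ran from -0.16 to -0.055.

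**Figure D2:**
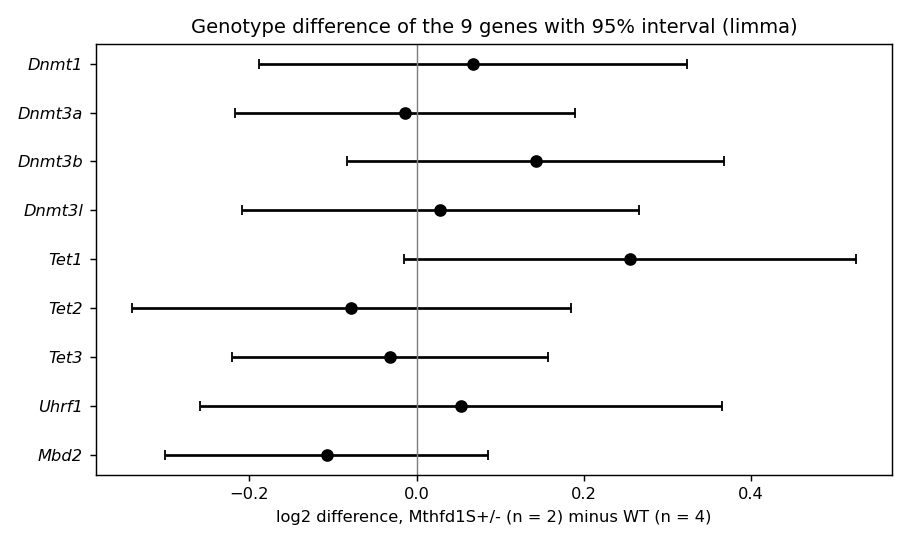
Log2 difference (Mthfd1S+/- minus WT, horizontal axis) of the 9 genes with the 95% interval of limma as bars. Every interval includes 0; the upper end for Tet1 is 0.53 and the lower end for Tet2 is -0.34.

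The 2 Mthfd1S+/- mice stood far apart for several of the genes. Their gap exceeded the whole WT range for Dnmt1 (0.30 against 0.197), Dnmt3l (0.295 against 0.16), Tet1 (0.34 against 0.24) and Tet2. Without Mthfd1S+/- mouse 1 the differences were -0.082 for Dnmt1, -0.11 for Uhrf1, -0.12 for Dnmt3l and -0.25 for Tet2. Without mouse 2 the same 4 genes had 0.22, 0.22, 0.18 and 0.089. With either mouse alone, 0 of the 9 genes passed the adjusted threshold in limma.

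**Figure D3:**
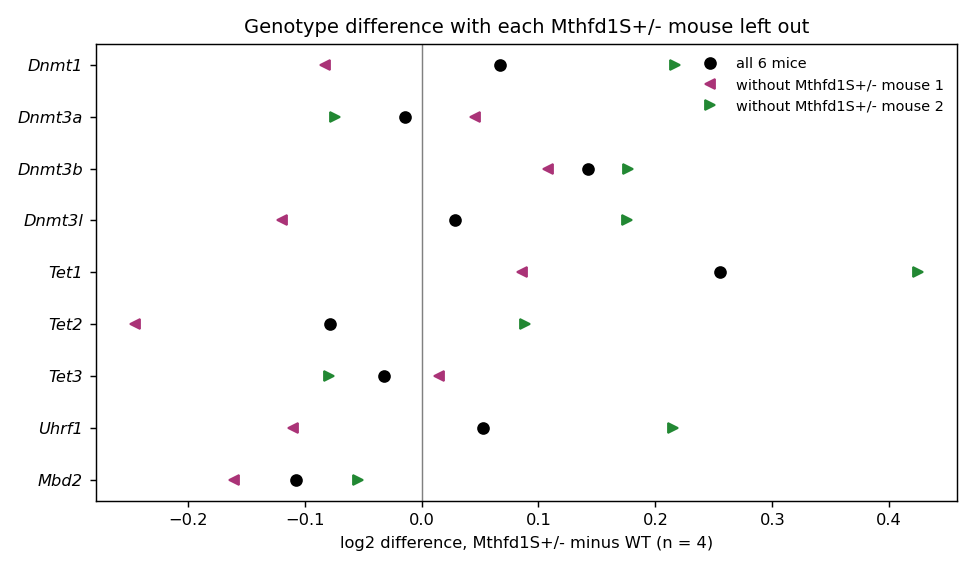
Log2 difference (Mthfd1S+/- minus WT, horizontal axis) of the 9 genes with all 6 mice and with either Mthfd1S+/- mouse left out. Dnmt1, Uhrf1, Dnmt3l and Tet2 lie on opposite sides of 0 depending on which mouse is kept, while Tet1 and Dnmt3b stay above 0 and Mbd2 below.

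Because maintenance methylation follows the replication fork, Dnmt1 and Uhrf1 were set against 30 measured genes of DNA replication and S phase, such as the Mcm helicase subunits and Pcna. The mean of these genes, each centred over the 6 mice, was 0.13, -0.021, -0.013 and -0.094 in the WT group and 0.16 and -0.16 in the Mthfd1S+/- group. WT mouse 1 and Mthfd1S+/- mouse 1 were high, as they were for Dnmt1 and Uhrf1. They are also the only 2 mice whose identifier carries the letter A, while the other 4 carry B. What the letter stands for is not given, and its part in the relation below cannot be told apart. Over the 6 mice Dnmt1 had a Pearson r of 0.90 (exact permutation p 0.0056, 0.0111 after Benjamini-Hochberg over both genes) and a Spearman rho of 0.83 (exact p 0.0583, adjusted 0.0583). Uhrf1 had an r of 0.896 (exact permutation p 0.0208, adjusted 0.0208) and a rho of 0.943 (exact p 0.0167, adjusted 0.0333). Only 1.06% of all tested clusters, the replication genes themselves included, had an r as high as that of Dnmt1, and 1.14% one as high as that of Uhrf1. Without WT mouse 1 and Mthfd1S+/- mouse 1, the 2 mice farthest from the median, r was 0.56 for Dnmt1 (exact permutation p 0.417) and 0.68 for Uhrf1 (0.375). Both r stayed positive but did not pass the threshold without those mice; leaving them out also narrows the range of the mean, and the 4 mice kept allow no exact p below 0.0417. No r within a genotype, of 4 or 2 mice, was computed. All values of a mouse share 1 array, and across these mice the epithelial marker mean was also lowest (-0.11) and the smooth muscle mean highest (0.41) in Mthfd1S+/- mouse 2; their part in the relation was not tested.

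Of the other 7 genes, set against the same mean after the values were seen, Tet2 had an r of 0.933 and a rho of 0.886 (exact permutation p 0.0111 and 0.0333). It was 0.979 without the same 2 mice (exact p 0.0833). Mbd2 had an r of 0.669 and Dnmt3a of -0.745 (exact permutation p 0.132 and 0.138), the latter with its highest readings in mice where Dnmt1 was lowest. Without the same 2 mice r was 0.992 for Mbd2 and -0.545 for Dnmt3a (exact permutation p 0.0417 and 0.5). When all 9 relations were adjusted together, the exact permutation p of r was 0.05 for Dnmt1 and Tet2, 0.0625 for Uhrf1 and at least 0.206 for the rest, and that of rho was at least 0.15 for all 9.

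**Figure D4:**
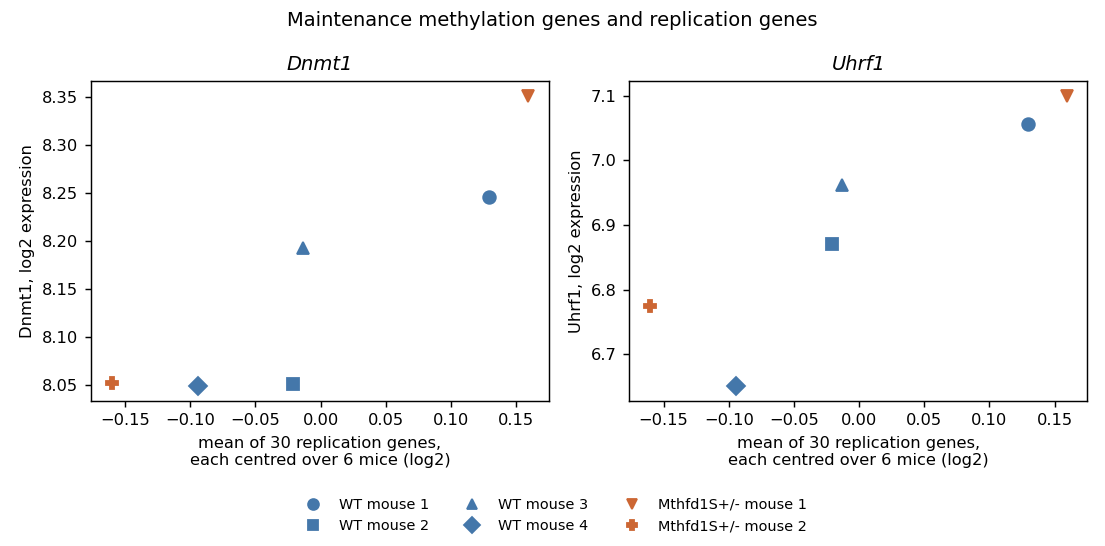
Log2 expression of Dnmt1 (left) and Uhrf1 (right) against the mean of 30 replication genes, each centred over the 6 mice (log2, horizontal axes), 1 point per mouse. WT mouse 1 and Mthfd1S+/- mouse 1 sit at the upper right in both panels, and Mthfd1S+/- mouse 2 and WT mouse 4 at the lower left.

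The start regions of Dnmt1 and Uhrf1 are shown because many replication genes are known targets of E2F factors. Both genes went with the replication genes over all 6 mice. Without WT mouse 1 and Mthfd1S+/- mouse 1 neither r passed the threshold. Whether E2F factors act on either gene in this tissue was not tested. RefSeq windows (GRCm38.p6, 250 bases before to 50 after an annotated start) were matched by symbol for 8 of the 9 genes, with 15 windows in all, and Mbd2 was not looked at. They were searched on both strands for the E2F consensus, spelled out as TTTGGCGC, TTTGCCGC, TTTCGCGC and TTTCCCGC, and no 2 matches overlapped. A match was present in 2.26% of all 32851 windows and in 5.06% of the 3837 windows with at least 30 CpG. Among the 15 windows 2 had a match, 1 of Dnmt1 and 1 of Uhrf1, each with 33 CpG. The window of Tet2, which also went with the replication genes across mice (Pearson r 0.933), had 0 matches. In Dnmt1 the matches lay 219 bases before and 33 bases after the start that is farthest downstream of its 3 annotated starts, and thus inside the transcribed part of the others. These sites on the minus strand, with the match in capitals, read
Dnmt1 chr9:20952824-20952853: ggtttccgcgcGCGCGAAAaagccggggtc
Dnmt1 chr9:20952574-20952601: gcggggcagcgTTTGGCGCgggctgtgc
The Uhrf1 window, on the plus strand at chr17:56304063-56304362 and around the downstream of its 2 annotated starts, has 1 match, 185 bases before the start, again in capitals:
Uhrf1: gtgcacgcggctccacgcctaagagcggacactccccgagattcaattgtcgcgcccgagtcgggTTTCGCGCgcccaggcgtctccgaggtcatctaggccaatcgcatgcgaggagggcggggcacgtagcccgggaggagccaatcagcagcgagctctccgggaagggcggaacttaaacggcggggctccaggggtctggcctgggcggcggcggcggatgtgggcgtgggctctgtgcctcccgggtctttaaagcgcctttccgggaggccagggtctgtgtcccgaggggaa
Of the 29 windows of replication genes 9 had a match, among them windows of Mcm5, Mcm6, Cdc6 and Cdt1. A match describes letters in a window and is not evidence of binding. CpG density differed widely among these 15 windows, from 57 CpG for Tet2 and 46 and 47 for 2 starts of Dnmt3a to 3 to 6 for the 3 starts of Dnmt3l and 2 for the start of Dnmt1 farthest upstream, beside a median of 7 over all windows.

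Tet1 had the largest SD over the 6 mice, 0.19, and the clusters most like it were sought among the 4586 that were above the median in level and in SD. The 5 closest were Alyref2, Wiz, Mrpl28, Aire and Chchd5, with a Pearson r of 0.961 to 0.973 over the 6 mice, and 30 clusters reached 0.9. Alyref2 read 6.19, 6.29, 6.34 and 6.32 in WT and 6.67 and 6.43 in Mthfd1S+/- mucosa. Like Tet1 it was lowest in WT mouse 1 and highest in Mthfd1S+/- mouse 1. These r are given as a description of 6 arrays.

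Other genes that work with DNA methylation were counted from lists. Of 20 measured readers and partners, 19 were higher in Mthfd1S+/- mucosa, beside 54.0% of all clusters, with a median difference of 0.067. Of the 20, 1 had an unadjusted p under 0.05 in limma, beside 5.79% of all clusters. The mean over these genes was 0.067 and 0.041 in the Mthfd1S+/- mice and -0.037 to -0.011 in the WT mice, each gene centred over the 6 mice. Without Mthfd1S+/- mouse 2, 15 of 20 were higher, beside 55.8% of all clusters. With arrays centred on their median it was again 19 of 20, where 63.1% of all clusters were higher. Zbtb38, a zinc finger protein that binds methylated CpG, read 7.32, 7.13, 7.23 and 7.28 in WT and 7.44 and 7.44 in Mthfd1S+/- mucosa. Both Mthfd1S+/- mice were above all WT mice, with a difference of 0.20 ± 0.087 (SE; adjusted p 0.837 in limma). Dmap1, a partner of DNMT1, read 6.197, 6.18, 6.14 and 6.02 in WT and 6.41 and 6.25 in Mthfd1S+/- mucosa, also without overlap, with a difference of 0.19 ± 0.092 (SE; adjusted p 0.845 in limma).

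Removal of oxidised or deaminated cytosine held the single genes with the smallest p. Of 9 measured genes 5 were higher, beside 54.0% of all clusters, and 4 lower (median 0.050). In each direction 1 had an unadjusted p under 0.05 in limma, beside 3.36% of clusters higher and 2.44% lower at that threshold. Gadd45b, a stress-induced gene linked to active demethylation in mouse neurons, read 7.78, 7.89, 7.66 and 7.65 in WT and 8.22 and 8.01 in Mthfd1S+/- mucosa. Both Mthfd1S+/- mice lay above the WT range. The difference was 0.37 ± 0.11 (SE), or 1.29-fold, with an unadjusted p of 0.0075 and an adjusted p of 0.837 in limma. Apobec1, a cytidine deaminase that edits Apob mRNA in the intestine, read 9.12, 9.004, 9.05 and 8.88 in WT and 8.80 and 8.62 in Mthfd1S+/- mucosa. Both Mthfd1S+/- mice lay below the WT range, with a difference of -0.31 ± 0.099 (SE) and an adjusted p of 0.837 in limma. For both genes the exact permutation p was 0.0667, the smallest this design can give. It rests on the same readings as the limma p by which the genes were named, so it adds no separate support. Zbtb38, Dmap1 and Idh2 (below) had the same exact permutation p. The groups did not overlap in 14.0% of all clusters.

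For the supply of S-adenosylmethionine and alpha-ketoglutarate, the cosubstrate of TET enzymes, 12 of 17 measured genes were higher, beside 54.0% of all clusters. The list median was 0.087, and 1 gene, Idh2, had an unadjusted p under 0.05 in limma, beside 5.79% of all clusters. Idh2, the mitochondrial isocitrate dehydrogenase that makes alpha-ketoglutarate, read 9.04, 9.20, 9.09 and 9.16 in WT and 9.31 and 9.34 in Mthfd1S+/- mucosa. Its groups did not overlap, and the difference was 0.21 ± 0.085 (SE; adjusted p 0.837 in limma). D2hgdh, which clears D-hydroxyglutarate, a competitor of alpha-ketoglutarate, had 0.17 ± 0.099 and overlapping groups (adjusted p 0.869 in limma). The median of this list was 0.011 without Mthfd1S+/- mouse 1.

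Histone methylation enzymes that work with DNA methylation had 4 of 11 genes higher, beside 54.0% of all clusters, and a median of -0.025. Of the 11, 0 had an unadjusted p under 0.05 in limma, beside 5.79% of all clusters. Without WT mouse 2 the list median was 0.024. The smallest p were those of Ehmt2, which methylates histone H3 and helps to silence genes, at -0.12 ± 0.091 (SE; adjusted p 0.895 in limma), and of the histone demethylase Kdm1a, at -0.075 ± 0.084 (adjusted p 0.938 in limma). Germline genes, which promoter methylation keeps silent in mouse somatic cells, had WT means of 2.17 to 5.04 over 19 genes. Of the 19, 14 were higher, beside 54.0% of all clusters, with a median of 0.047. At an unadjusted p under 0.05 in limma there were 0 of the 19, beside 5.79% of all clusters. The meiotic gene Sycp1 read 3.22, 3.71, 3.91 and 3.92 in WT and 3.89 and 4.43 in Mthfd1S+/- mucosa, with mouse 2 above all others and a difference of 0.47 ± 0.22 (SE; adjusted p 0.837 in limma). Dazl, a germ cell RNA-binding protein, stayed at 3.81 to 3.95 in WT and read 3.91 and 3.39 in Mthfd1S+/- mucosa, with a difference of -0.24 ± 0.14 (SE; adjusted p 0.869 in limma).

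The replication list had 14 of 30 genes higher, beside 54.0% of all clusters, and a median of -0.0092. Of the 30, 0 had an unadjusted p under 0.05 in limma, beside 5.79% of all clusters. E2f1, a transcription factor of S phase entry, had 0.22 ± 0.12 (SE; adjusted p 0.858 in limma) and Rrm1, a subunit of ribonucleotide reductase, 0.19 ± 0.13 (adjusted p 0.891 in limma). Without Mthfd1S+/- mouse 1, 3 of the 30 were higher, beside 51.1% of all clusters. Without mouse 2, 29 of the 30 were higher, beside 55.8%.

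**Figure D5:**
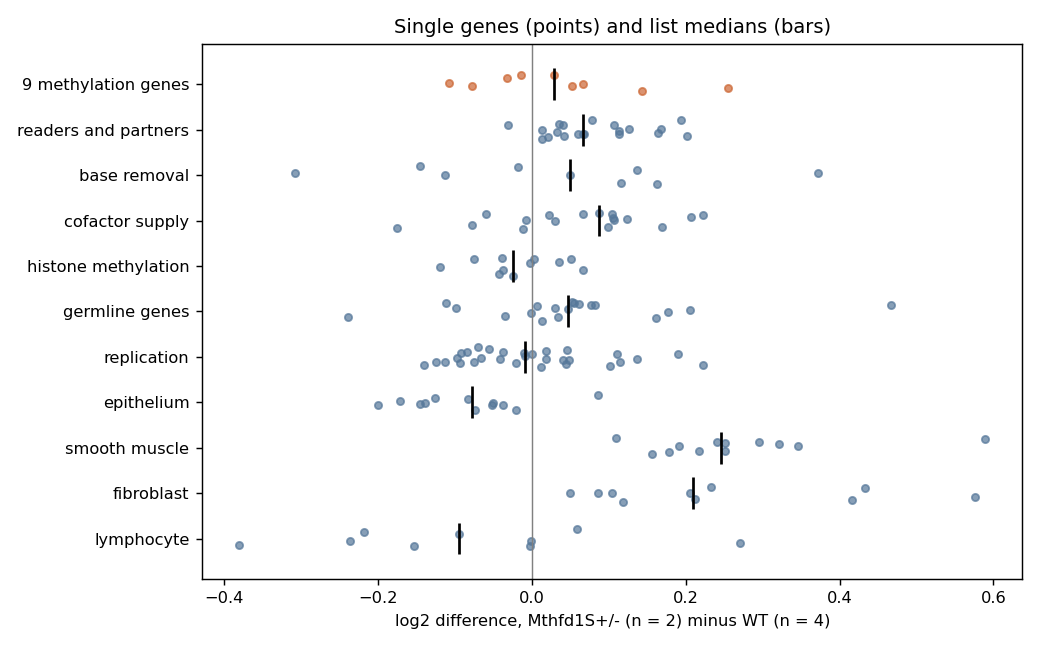
Log2 difference (Mthfd1S+/- minus WT, horizontal axis) of single genes (points) by gene list, with the list median as a bar. The 9 methylation genes lie between -0.11 and 0.26, and the smooth muscle markers are all above 0.

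The differences of cell type markers varied in size with single mice. Only the smooth muscle median changed sign when 1 mouse was left out. The fibroblast median stayed above 0, and those of epithelium and lymphocytes stayed below 0. All 12 smooth muscle markers were higher in Mthfd1S+/- mucosa (median 0.25), with list means of -0.17, -0.26, -0.014 and 0.091 in the WT group and -0.064 and 0.41 in the Mthfd1S+/- group. All 10 fibroblast markers were higher (median 0.21), 11 of 12 epithelial markers lower (median -0.078) and 7 of 9 lymphocyte markers lower (median -0.094). Leaving out Mthfd1S+/- mouse 2 gave medians of -0.0018 (smooth muscle), 0.11 (fibroblasts) and -0.025 (epithelium), and without WT mouse 1 that of the lymphocytes was -0.037. When the mean of the smooth muscle list entered the fit as a covariate, the differences were 0.17 for Dnmt1, 0.23 for Uhrf1, 0.35 for Tet1 and 0.083 for Tet2. Under that covariate 0 of the 9 genes passed the adjusted threshold in limma. An unadjusted p under 0.05 was found for 1 of the 9, Tet1, and for 1182 of all 23521 clusters.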

How the data were processed

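Affymetrix arrays of 6 mice (4 WT, 2 Mthfd1S+/-) were used. The authors deposited log2 values, 1 per transcript cluster and array. Per the submitters' processing notes they come from Affymetrix Expression Console; which version, algorithm and genome build is not given in the sources used here. Values of 1.06 to 13.5 fit a log2 scale. Of 41345 rows, 23521 had 1 gene symbol in the platform table and were tested; 1814 with several and 16010 with none were left out. The genotype comparison used limma 3.58.1 under R 4.3.3 (lmFit, eBayes, no covariate, two-sided, 4 residual and 4.35 prior degrees of freedom) with Benjamini-Hochberg adjustment over these rows. The number of arrays limits the precision (median SE 0.106). A gene was read from its row with the highest mean. Exact tests were two-sided (scipy 1.17.1). On simulated data with 23521 clusters, 98.4% of 2-fold and 99.8% of 4-fold changes were recovered, with a mean of 10.6 false calls in 10 data sets. The simulated noise was drawn for each cluster on its own, without shifts that many clusters of a mouse share. Smaller changes were not simulated, so these rates do not carry over to the differences reported here.

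The 9 genes and all lists were chosen with earlier results of these data known. Genes named beside the 9 were, per list, up to 4 with an unadjusted p under 0.05, or else the 2 with the smallest p, and the 5 clusters most like the most variable gene; marker genes and others outside this rule serve as examples. Replicate numbers are shared by the titles of 2 pairs of mice, and the labels tie no pair together. Tissue makeup, the replication mean as a covariate, scaling, row filters, a replicate block, the identifier letter, the variance model and each mouse were varied. Each gene had 1 row, so no other row could be tried.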

Additional observations from a re-analysis of the deposited data

How the results depend on the processing

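In 135 values of the 9 genes under 15 alternatives, 0 had an adjusted p under 0.05, and 15 changed sign. Dnmt3b, Tet1 and Mbd2 kept their sign in all 15. Centring arrays on their median turned Dnmt3a to 0.013 and quantile normalization to 0.00084. Both brought Tet1 to an unadjusted p under 0.05 in limma, so that 1 of 9 genes was there. Among all 23521 clusters 1511 were there after centring and 1510 after quantile normalization. With the smooth muscle covariate 1 of 9 genes and 1182 of all clusters were there. In that fit the median of the 9 was 0.10 and Tet2 had 0.083. Of clusters at that p, 58% were higher in Mthfd1S+/- mucosa, 73.5% after centring and 71.4% after quantile normalization. The identifier letter as a covariate gave 0.0070 for Dnmt3a and -0.014 for Uhrf1. The mean of the replication list as a covariate gave 0.068 for Dnmt1, 0.054 for Uhrf1 and -0.077 for Tet2. With the replicate block Uhrf1 had -0.026, and 2331 clusters had an unadjusted p under 0.05 in place of 1363; over all rows there were 2600, with more rows tested. Deviations of same-numbered mice from their group means correlated at 0.12 and -0.044. With 2 Mthfd1S+/- mice these deviations mirror each other (0.12 and -0.12 with WT mouse 1). The check therefore cannot settle whether the numbers pair mice. Other causes were not tested.

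Leaving out 1 mouse at a time gave -0.082 to 0.22 for Dnmt1, -0.074 to 0.046 for Dnmt3a, -0.12 to 0.18 for Dnmt3l, -0.25 to 0.089 for Tet2, -0.079 to 0.015 for Tet3 and -0.11 to 0.22 for Uhrf1. The median of the 9 ran from -0.082 to 0.18. List medians ran from 0.062 to 0.084 for readers and partners, 0.011 to 0.13 for cofactor supply, -0.011 to 0.10 for germline genes, -0.17 to 0.15 for replication, -0.11 to -0.025 for epithelium, -0.0018 to 0.45 for smooth muscle, -0.057 to 0.024 for histone methylation, 0.017 to 0.077 for base removal, 0.11 to 0.30 for fibroblasts and -0.14 to -0.037 for lymphocytes. The histone methylation median was positive only without WT mouse 2, and it was lowest without WT mouse 4. The smallest base removal median came without Mthfd1S+/- mouse 1, that of the fibroblasts without Mthfd1S+/- mouse 2 and that of the lymphocytes without WT mouse 1, each over 1.5 times from the value with all mice. A lone Mthfd1S+/- mouse is assumed to vary like the WT mice. Without the 2 mice farthest from the median, r with the replication mean was 0.56 for Dnmt1 and 0.68 for Uhrf1. The table holds no detection calls, so signal over background is unknown for Tet1, Dnmt3b, Dnmt3l and the germline genes.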
